A study of Mus musculus with 3 samples.

Results

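The genes described here build the glycosylphosphatidylinositol (GPI) anchor, attach it to proteins, remodel it or release proteins from it. They were taken from a list of 30 mouse genes, matched to array probes by RefSeq accession, which found 35 probes for 24 of them among 41174 gene probes. The list was drawn up after a probe of Pigt, which encodes part of the anchor-attaching enzyme, had been seen to fall in these arrays. The ratios of mutant over wild type that chose the members are therefore given as descriptions. Their probes are marked as changed or not by a fit over all tested probes, and these marks are descriptions too. No test of the members as a set was run, and no p-value is given for them.

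The GPI anchor is a glycolipid that holds many proteins to the outer face of the plasma membrane. It is assembled stepwise in the membrane of the endoplasmic reticulum, where N-acetylglucosamine, mannoses and ethanolamine phosphates are added to phosphatidylinositol, and a transamidase complex then exchanges a protein's C-terminal signal for the finished anchor. In the brain, contactins, the prion protein and several adhesion molecules of axons and myelin are held this way.

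The arrays compared cortex of Gtf2i(+/Δex2) mice, which carry one allele of the transcription factor gene Gtf2i named for a deletion of exon 2, with cortex of WT(+/+) mice. All mice were 16 weeks old on a mixed background (98.4% C57BL/6J and 1.6% 129Sv/CD1), and RNA of 3 to 5 mice with the same genotype was pooled, as the series' design text states. Both genotypes were hybridised together on each of 3 arrays of 60-mer probes, and mutant RNA carried Cy5 on replicate 2 but Cy3 on the others. Whether the arrays share pools is not stated, so every call rests on array-to-array spread that may be technical alone, and their number limits the precision.

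The quantity reported is the log2 ratio of mutant to wild-type signal, from intensities that the authors had already background-subtracted and normalized, so 0 means equal signal and a negative value a lower signal in the mutant. This direction is likely, from the order of the sample titles, the definition of the fold in the deposited readme and a set of control spots whose median log2 ratio turned with the dyes (4.51, -4.54 and 4.58 on replicates 1 to 3). A probe was tested where at least 2 arrays flagged it reliable, meaning a foreground above 2 times its background. A change is called where the adjusted p of the limma fit over all 27530 tested probes was under 0.05, and only called probes are said to have risen or fallen. By that rule 33.9% of all tested probes were called, 18.9% lower and 15.0% higher in the mutant. The probes of Gtf2i itself read -0.47 ± 0.04 and -0.32 ± 0.05 (SD, n = 3 arrays), and their places relative to the deleted exon are not known here.

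The tissue label was set against marker genes. Of 11 probes for cortical glutamatergic neuron markers, 10 were reliable on all 3 arrays. Medians of mean log2 ratios were -0.221 for these markers, -0.196 for interneuron, -0.302 for astrocyte, -0.222 for oligodendrocyte, -0.172 for microglia, -0.334 for blood and -0.137 for striatal markers, and 0.193 for thalamic and 0.176 for choroid plexus and meningeal markers, against -0.002 for all tested probes. Thalamic markers averaged -0.049, -0.054 and 0.663 on replicates 1 to 3, and blood markers -0.491, -0.531 and -0.065. Of 9 tested probes for choroid plexus and meningeal markers, 4 rose and 0 fell, against 15.0% and 18.9% of all tested probes. Rises and falls were 0 and 5 of 10 for glutamatergic neuron markers and 0 and 3 of 9 for interneuron markers. For astrocyte markers they were 1 and 5 of 9, and for oligodendrocyte markers 1 and 4 of 11. Microglia markers had 1 and 6 of 9, and blood markers 0 and 4 of 6. Striatal markers had 0 and 2 of 10, and thalamic markers 1 and 0 of 13. The part of these shifts in the values below was not tested. In bulk tissue, fewer cells of a type and less RNA per cell cannot be told apart.

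Of the 30 genes, 6 had no probe matched by accession (Pigyl, Pigl, Dpm3, Pigg, Pgap1 and Pgap3). For 4 more, Pigh, Pigv, Pigb and Gpaa1, no probe passed the filter on dim spots. The remaining 20 genes had 28 tested probes, all 28 of them reliable on all 3 arrays. The authors' detection flags, Present, Marginal or Absent by intensity, were given for each genotype on each array, which makes 6 readings per probe. Of the 35 probes, 21 were Present or saturated in all 6 readings, 3 in some of them and 11 in none.

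The stretches upstream of the annotated starts are shown for the members with the lowest and the highest mean ratio, Pigt and Pigz, and for Pigw, a called member whose stretch holds an E-box. TFII-I, the product of Gtf2i, is known to bind E-boxes and initiator elements. Each stretch is the 250 bases before a RefSeq start on GRCm38.p6, written 5′ to 3′ on the gene's strand, with the E-box CACGTG in capitals.
Pigt, chr2:164497275-164497524, + strand: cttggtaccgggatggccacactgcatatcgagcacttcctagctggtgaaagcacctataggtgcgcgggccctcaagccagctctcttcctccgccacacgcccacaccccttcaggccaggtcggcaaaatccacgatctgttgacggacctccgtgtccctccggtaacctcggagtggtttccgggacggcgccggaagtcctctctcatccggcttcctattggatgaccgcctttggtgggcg
Pigz, chr16:31933601-31933850, + strand: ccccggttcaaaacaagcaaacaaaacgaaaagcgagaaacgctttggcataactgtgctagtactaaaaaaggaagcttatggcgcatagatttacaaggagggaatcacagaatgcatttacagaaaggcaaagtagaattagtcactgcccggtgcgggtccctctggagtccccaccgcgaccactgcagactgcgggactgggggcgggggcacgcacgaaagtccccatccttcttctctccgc
Pigw, chr11:84880196-84880445, - strand: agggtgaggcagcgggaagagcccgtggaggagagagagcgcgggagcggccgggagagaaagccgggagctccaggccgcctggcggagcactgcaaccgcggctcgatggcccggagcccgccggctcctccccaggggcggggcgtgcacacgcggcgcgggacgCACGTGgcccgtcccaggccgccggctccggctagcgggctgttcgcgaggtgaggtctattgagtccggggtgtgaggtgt
The letters CACGTG, which read the same on both strands, occurred in 4 of 34 such stretches of 24 members (11.8%), belonging to Pigw, Pigp and Dpm2, and in 6.02% of all 32851 stretches. A pair of overlapping stretches of Pigp hold the same site, which is counted in each. In Pigw the letters begin at -82 from the start. Mean log2 ratios were 0.29 (called) and 0.16 (not called) for the Pigw probes. They were 0.15 (called) for Pigp and -0.12 (not called) for Dpm2. Pigw was chosen after its values were seen, and a link of the letters to the ratios was not tested. The stretches of Pigt and Pigz shown hold no CACGTG. The GC box GGGCGG, searched on both strands, occurred in 50.0% of the members' stretches and in 32.7% of all stretches. TATAAA, also searched on both strands, occurred in 8.82% of the members' stretches and in 12.4% of all stretches. These matches describe the letters in the window and were not related to any measured binding.

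Among the tested probes of GPI anchor genes, 6 of 28 fell and 8 rose in the mutant cortex, against 18.9% and 15.0% of all tested probes. Because these ratios come from the contrast that chose the list, nothing is read from that difference. Without replicate 1, 6 member probes were called, and the count over all tested probes fell to 2409 of 27530, against 9333 with every array. The median of the 28 mean log2 ratios was 0.011, against -0.002 for all tested probes, and the range ran from -1.24 for Pigt to 0.54 for Pigz. Counted by gene, with each gene represented by its probe of smallest p, 5 of 20 fell and 7 rose, against 23.6% and 17.1% of 12721 named genes. Pigs counts as fallen there, although its other probe rose. With the median of a gene's tested probes instead, 3 of the 20 fell and 6 rose. Signs were the same on all 3 arrays for 20 of the 28 probes (71.4%), against 65.1% of all tested probes.

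**Figure D1:**
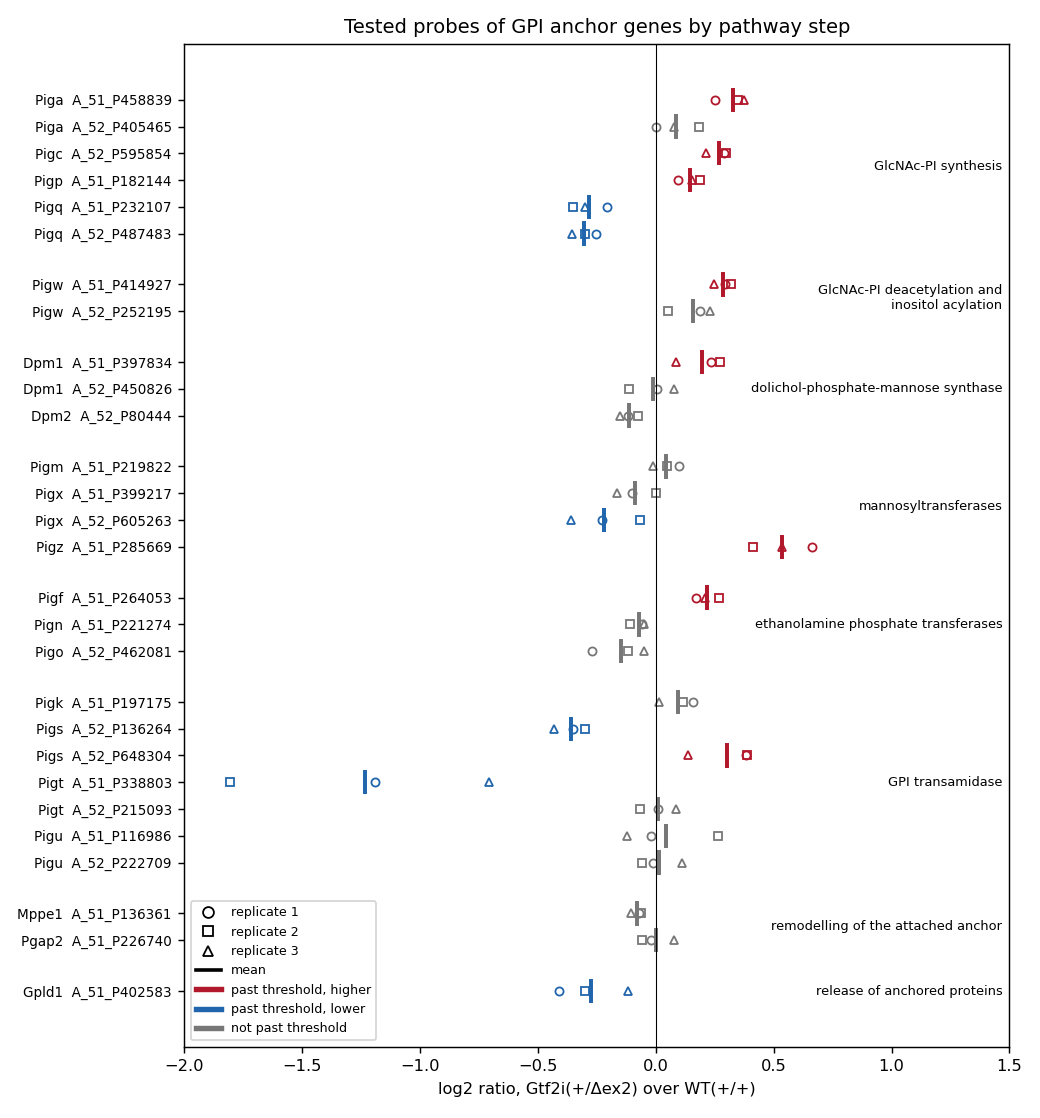
Log2 ratios of Gtf2i(+/Δex2) over WT(+/+) cortex for the 28 tested probes of GPI anchor genes, grouped by pathway step, with a symbol for each array and a bar at the mean of 3 arrays. The Pigt probe A_51_P338803 lies apart at -1.24, and the other probes lie between -0.36 and 0.54.

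The transamidase is the complex that cleaves a protein's C-terminal signal and joins the protein to the anchor. Its genes gave both the lowest ratio and the widest disagreements between probes. Pigt encodes a luminal subunit that holds the complex together, and its probe A_51_P338803 had intensities of 13742, 23769 and 24406 in mutant cortex on replicates 1 to 3, against 31406, 83188 and 39816 in WT cortex. The mutant reading was the lower one on every array, and the highest mutant reading lay below the lowest WT reading. How many of all tested probes separate the genotypes in this way is not given. Nothing is therefore read from such separation, here or for the members below. The log2 ratios were -1.19, -1.81 and -0.71, with a mean of -1.24 ± 0.55 (SD, n = 3), or 42.5% of WT. On replicate 2 the WT reading was flagged saturated, so its true level may be higher, and without that array the mean was -0.95. The probe kept its call without any 1 of the arrays, but it did not pass the authors' rule of a limma B statistic above 0. Its fall prompted the list, and these are subsets of the same arrays, so nothing is read from the kept call.

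The other Pigt probe, A_52_P215093, carries the same RefSeq accession. It read 189, 173 and 241 in mutant cortex on replicates 1 to 3, against 188, 181 and 227 in WT cortex, and was flagged Marginal in all 6 readings. Its log2 ratios of 0.01, -0.07 and 0.08 averaged 0.01 ± 0.08 (SD, n = 3) and were not called. The fall of Pigt therefore stands on 1 of its 2 probes. With each array's median over both probes taken as the gene's value, Pigt read -0.61 and was called lower. The median of 2 probes is their average, so that value takes its fall from A_51_P338803 alone and adds no support. Where each probe lies in the transcript is not known here.

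**Figure D2:**
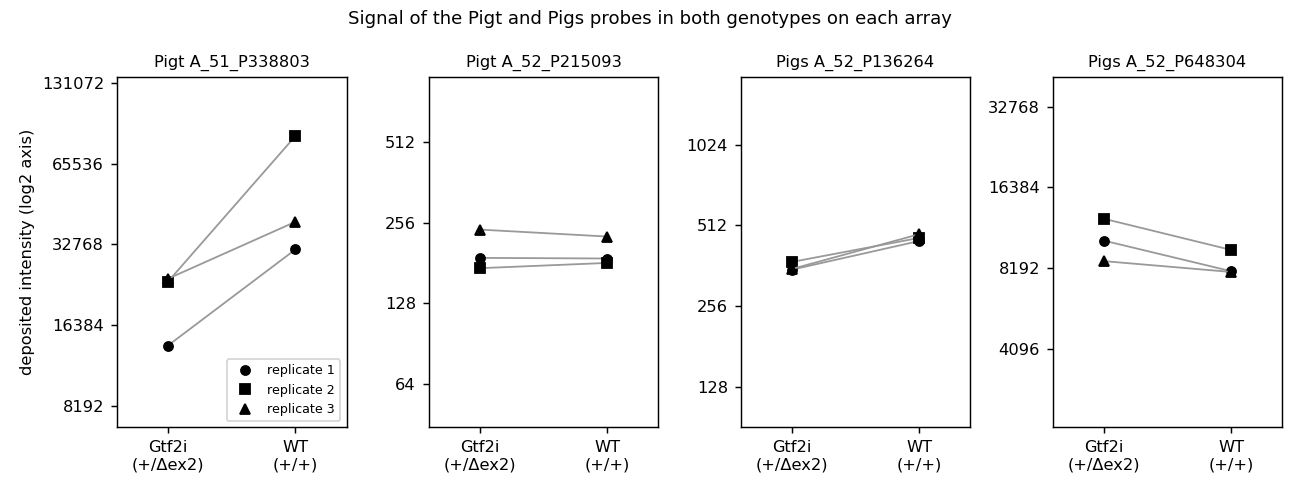
Deposited intensity, on a log2 axis, of the probes of Pigt and Pigs in Gtf2i(+/Δex2) and WT(+/+) cortex, with a line joining the genotypes on each array; every panel spans the same number of doublings. The lines of Pigt A_51_P338803 rise steeply to the WT side, those of Pigt A_52_P215093 are nearly flat, and those of the Pigs probes slope in opposite directions.

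Pigs, another membrane subunit of the transamidase, was called in both directions. Probe A_52_P136264 read 350, 374 and 352 in mutant cortex on replicates 1 to 3, against 448, 460 and 475 in WT cortex. All mutant readings lay below all WT readings, and the mean log2 ratio was -0.36 ± 0.07 (SD, n = 3). Probe A_52_P648304 read 10380, 12526 and 8702 in mutant cortex, against 7975, 9575 and 7927 in WT cortex. The mutant was higher on each array, by 0.38, 0.39 and 0.13, with a mean of 0.30 ± 0.14 (SD, n = 3), although the genotypes overlapped between arrays. That call was lost without replicate 1 and without replicate 2. With the median of both probes as the gene's value, Pigs was not called and read -0.03.

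The remaining transamidase genes were not called. Pigk, the catalytic cysteine protease of the complex, read 254, 282 and 235 in mutant cortex on replicates 1 to 3, against 228, 260 and 233 in WT cortex, a mean log2 ratio of 0.10 ± 0.07 (SD, n = 3). Pigu, which is thought to help recognise the anchor, had a probe at 0.04 ± 0.20, with log2 ratios of -0.02, 0.26 and -0.12, and a brighter probe at 0.01 ± 0.09, with -0.01, -0.06 and 0.11 (SD, n = 3). Neither probe kept its sign over the arrays. Gpaa1, which takes part in joining the anchor to the protein, had 1 probe that was reliable on 1 array and was not tested. It read 121, 136 and 147 in mutant cortex on replicates 1 to 3, against 144, 155 and 160 in WT cortex, and it was flagged Absent or Marginal in every reading.

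Disagreement between probes was set against all genes. Of 8 GPI anchor genes with at least 2 tested probes, Pigt (a difference of 1.24 between its probes' mean log2 ratios) and Pigs (0.66) exceeded 0.5, which is 25.0%, and 9.3% of 3270 named genes did so. Differences over 1 were seen in 19 of the 3270 genes (0.581%), Pigt among them. The difference of Pigt comes from the probe whose fall prompted the list, so nothing is read from these shares. The other 6 members agreed more closely, with Piga at 0.24, Dpm1 at 0.21, Pigw and Pigx at 0.13 each, Pigu at 0.03 and Pigq at 0.02. The median difference was 0.169 for the 8 members and 0.161 for all such genes. Probes called in opposite directions occurred in 1 of the 8 members, Pigs, and in 198 of the 3270 genes (6.06%).

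**Figure D3:**
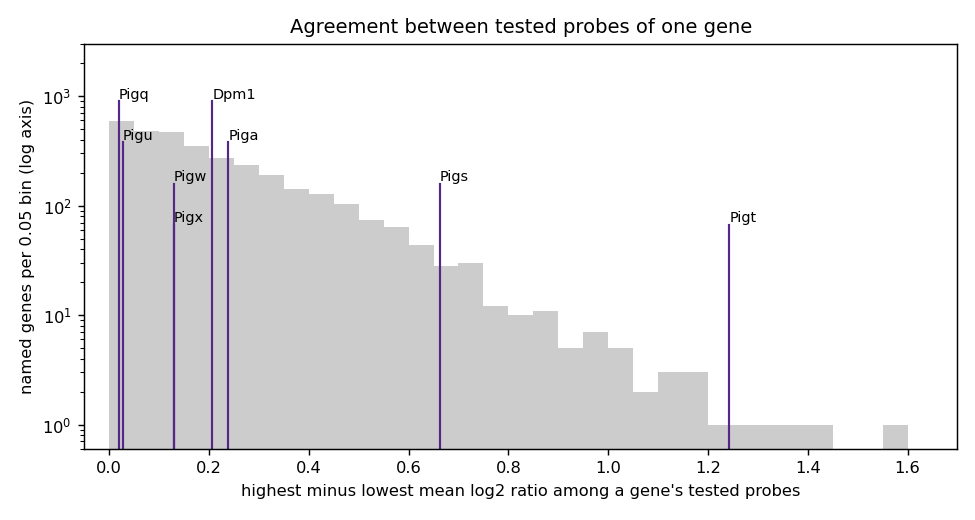
Histogram, on a log axis, of the difference between the highest and the lowest mean log2 ratio among the tested probes of each of 3270 named genes, with vertical lines at the 8 GPI anchor genes that had at least 2 tested probes. Pigt at 1.24 and Pigs at 0.66 lie in the tail, and the other 6 lie at 0.24 or below.

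The first step, the transfer of N-acetylglucosamine to phosphatidylinositol, is carried out by a complex of several subunits, and its genes moved in both directions. Of 6 tested probes for 4 genes, 3 rose and 2 fell (83.3% called, against 33.9% of all tested probes), and nothing is read from that share, since the same contrast chose the members. Piga, the catalytic subunit, rose at probe A_51_P458839, which read 633, 689 and 568 in mutant cortex on replicates 1 to 3, against 532, 541 and 438 in WT cortex. The mutant readings all exceeded the WT readings, and the mean log2 ratio was 0.33 ± 0.06 (SD, n = 3). The dimmer Piga probe A_52_P405465 averaged 0.09 ± 0.09 and was not called.

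Pigq, which stabilises the same complex, fell at both of its probes. Probe A_52_P487483 read 580, 627 and 586 in mutant cortex on replicates 1 to 3, against 693, 771 and 751 in WT cortex, and A_51_P232107 read 643, 626 and 647 in mutant cortex, against 741, 798 and 796 in WT cortex. For each probe the genotypes did not overlap, and the mean log2 ratios were -0.30 ± 0.05 and -0.28 ± 0.07 (SD, n = 3). Pigq was the only tested member with several probes for which more than 1 probe was called and all called probes went the same way. Pigc and Pigp, further subunits of the complex, rose by less, with 0.27 ± 0.05 and 0.15 ± 0.05 (log2 ratio, SD, n = 3). The call of Pigc was lost without replicate 1, and that of Pigp without any 1 of the arrays. Pigh, also of this complex, was not reliable on any array and read 0.33, -0.27 and 0.78.

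After deacetylation of the sugar, the inositol is acylated by the enzyme that Pigw encodes. Probe A_51_P414927 of Pigw read 354, 330 and 306 in mutant cortex on replicates 1 to 3, against 289, 265 and 258 in WT cortex. All mutant readings lay above all WT readings, with a mean log2 ratio of 0.29 ± 0.04 (SD, n = 3). The call was lost without replicate 1. The other Pigw probe averaged 0.16 ± 0.09, was not Present in any of 6 readings and was not called.

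Mannose is donated by dolichol-phosphate-mannose, made by a synthase whose catalytic subunit is Dpm1. One Dpm1 probe rose by 0.20 ± 0.10, and its brighter probe averaged -0.01 ± 0.10 and was not called. The rise of the dimmer probe was lost without replicate 1 and without replicate 2. Dpm2, a small regulatory subunit of the synthase, read -0.12, -0.08 and -0.15 on replicates 1 to 3 and was not called.

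Among the mannosyltransferases, Pigz showed the highest ratio of all tested members. Pigz adds a side mannose that many mammalian anchors lack. Its only probe, A_51_P285669, read 1380, 1374 and 1217 in mutant cortex on replicates 1 to 3, against 873, 1033 and 840 in WT cortex. The genotypes did not overlap, and the log2 ratios of 0.66, 0.41 and 0.53 averaged 0.54 ± 0.12 (SD, n = 3), or 145.0% of WT. Pigm, the enzyme that adds the initial mannose, averaged 0.04 ± 0.06 at its tested probe and was not called. Pigx, the partner that stabilises Pigm, had a probe that fell by 0.22 on the log2 scale, with -0.23, -0.07 and -0.36 on the arrays, and another at -0.09 ± 0.08 that was not called. The call of Pigx was lost without replicate 1 and without replicate 3. The probes of Pigv and Pigb, which add later mannoses, were reliable on 0 arrays and averaged between -0.0022 and 0.14.

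Of the ethanolamine phosphate transferase genes, Pigf rose and the rest were not called. Pigf, a partner that the transferases Pigo and Pigg require, had log2 ratios of 0.17, 0.27 and 0.21, with a mean of 0.22 ± 0.05 (SD, n = 3), and was not called without replicate 1. Pigo read -0.27, -0.12 and -0.05, and the tested probe of Pign, which modifies the initial mannose, read -0.06, -0.11 and -0.05. Both were below 0 on every array without passing the threshold.

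After attachment the anchor is trimmed and its lipid exchanged. Mppe1 (also known as Pgap5), a phosphodiesterase that removes an ethanolamine phosphate before export from the endoplasmic reticulum, averaged -0.08 ± 0.02, and Pgap2, which acts in the lipid exchange in the Golgi, averaged -0.0014 ± 0.07 (SD, n = 3). Neither was called. Gpld1, a phospholipase D that cleaves GPI anchors, fell, with log2 ratios of -0.41, -0.30 and -0.12 and a mean of -0.28 ± 0.15 (SD, n = 3), the weakest on replicate 3. Its call was lost without replicate 1 and without replicate 2.

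**Figure D4:**
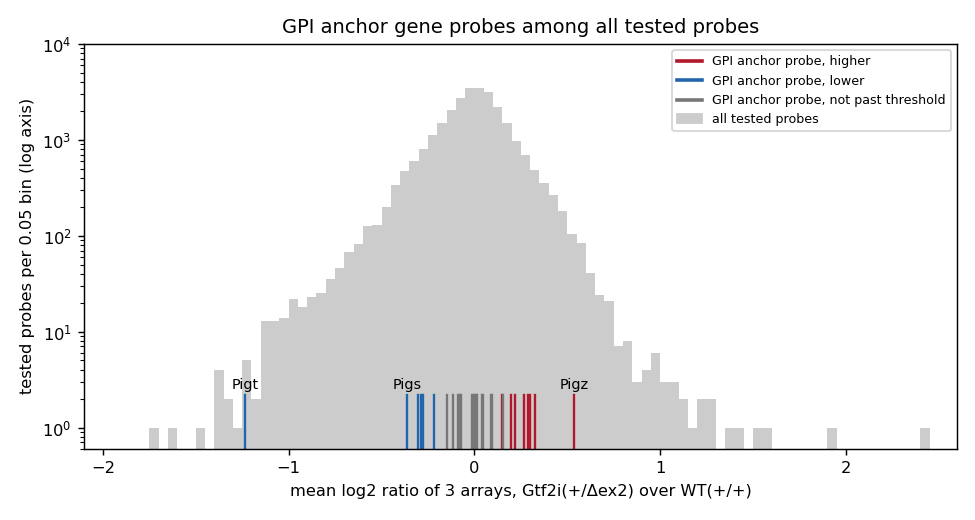
Histogram, on a log axis, of the mean log2 ratio of Gtf2i(+/Δex2) over WT(+/+) for 27530 tested probes, with a tick for each of the 28 tested probes of GPI anchor genes. Apart from the Pigt probe at -1.24, the ticks lie between -0.36 and 0.54. The Pigz probe at 0.54 lies in the upper tail, at rank 248 from the highest of 27530.

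The arrays' ratios for the members were correlated, although 8 of the 28 tested probes changed sign between arrays. Across the 28 tested probes, which are not independent replicates, Pearson's r of the ratios was 0.927 for replicates 1 and 2, 0.893 for 1 and 3 and 0.795 for 2 and 3. Without the Pigt probes, over 26 probes, r was 0.883, 0.867 and 0.785. Over all tested probes it was 0.822, 0.783 and 0.625. The arrays may share RNA pools, which these values cannot show.

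Other genes that act beside the members were taken from a list of 22 symbols, which covers the supply of dolichol and mannose donors and further genes of anchor assembly, modification, transport and release. Of their 22 tested probes for 18 genes, 3 rose and 3 fell, against 15.0% and 18.9% of all tested probes, and the median was -0.005. Without replicate 1, 2 of the 22 were called. Tmed10 and Tmed2 encode p24 cargo receptors that carry GPI-anchored proteins out of the endoplasmic reticulum. Tmed10 rose by 0.57 ± 0.11, and Tmed2 rose at probes reading 0.50 ± 0.13 and 0.38 ± 0.12, with another at 0.24 ± 0.18 that was not called (SD, n = 3). The falls were Clptm1l at -0.27 ± 0.08, the gene Gde1 at -0.25 ± 0.17 and Gmppa, a regulator of GDP-mannose synthesis, at -0.22 ± 0.09. Clptm1l encodes a lipid scramblase reported to act on an early GPI intermediate.

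Genes for proteins that carry the anchor were counted from a list of 85 symbols, of which 61 genes had 75 tested probes. Of these probes 18 fell and 10 rose, against 18.9% and 15.0% of all tested probes, with a median of -0.027. Without replicate 1, 7 of the 75 were called. The lowest means were those of Cntn1 and Omg, at -0.62 ± 0.13 and -0.57 ± 0.06, followed by Ntm at -0.50 ± 0.26 and Cntn2 at -0.39 ± 0.05 (SD, n = 3). Another Ntm probe, also called, read -0.26 ± 0.15 (SD, n = 3). The other Cntn2 probes, at 0.03 and -0.05, were too dim to be tested. Cntn1 and Cntn2 encode contactins, axonal adhesion proteins, Omg a myelin glycoprotein and Ntm the adhesion protein neurotrimin. The highest were Alpl, tissue-nonspecific alkaline phosphatase, at 0.47 ± 0.36, the hyaluronidase gene Hyal2 at 0.39 ± 0.19 and the melanotransferrin gene Meltf at 0.38 ± 0.16. Alpl stood at 0.88 on replicate 3 and at 0.29 and 0.23 on the other arrays. Sprn, a relative of the prion protein gene, had probes at 0.32 ± 0.10 and -0.34 ± 0.06, both called.

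**Figure D5:**
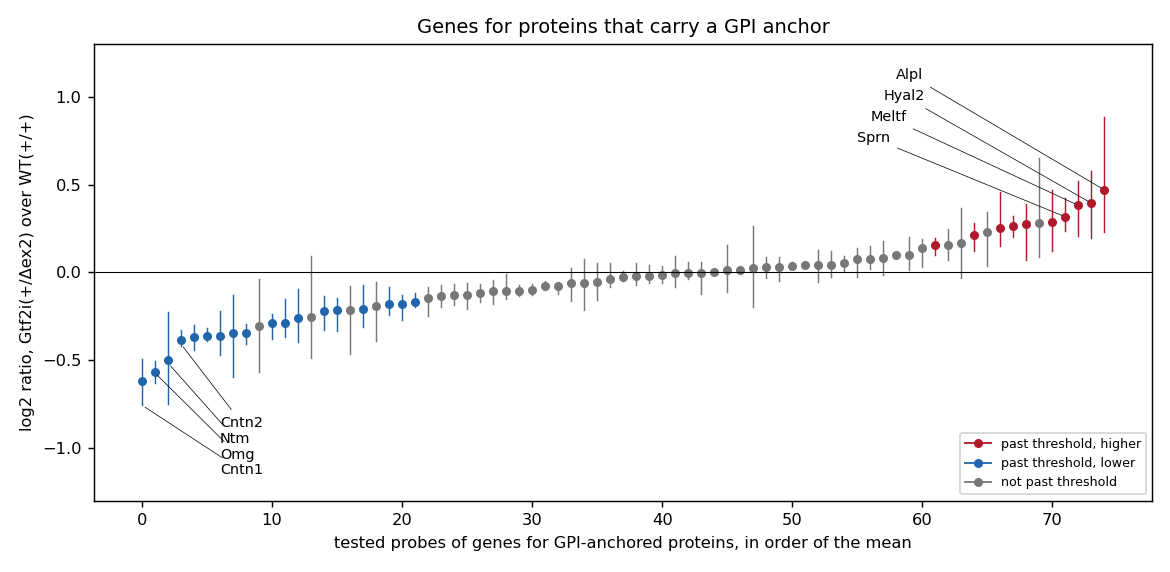
Log2 ratios of Gtf2i(+/Δex2) over WT(+/+) for 75 tested probes of genes for GPI-anchored proteins, in order of the mean; points are means of 3 arrays and lines span the lowest to the highest array. The called probes, 10 higher and 18 lower, run from Cntn1 at -0.62 to Alpl at 0.47.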

How the data were processed

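Per the labels' protocols, Trizol was used for RNA extraction, integrity numbers were 7 or higher, and labelling by in vitro transcription started from 500 ng. The authors deposited, for each array, a linear intensity per spot and channel, which per the deposited readme was background-subtracted, normalized by a method not given and corrected for the dye swap, from GenePix images. The authors also deposited a collapsed log2 ratio, and a signed fold, a score in which a ratio below 1 is given as its negative reciprocal; the series value table equals that score at all 44290 spots of each array (medians -1.01, -1 and 1), and 0 columns were left unused.

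Spots of a probe were averaged, and accessions were matched without versions to RefSeq genes of GRCm38.p6 (21445 of 41174 probes named); upstream sequences are RefSeq's for GRCm38.p6, with entries for 24 of the 30 members. Log2 ratios were tested against 0 with limma 3.58.1 in R 4.3.3 (lmFit and eBayes), with Benjamini-Hochberg adjustment over 27530 probes. The fit was also run on simulated ratios with independent noise. These hold no shared pools or array-wide shifts, so nothing about the calls is read from that run. Figures used matplotlib 3.10.9 in Python 3.11.15. The members and lists were chosen with earlier results of these data known.

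By rule, every member was accounted for, with readings per array for the transamidase genes and the 3 members changed most in each direction; Pigw was added after its values were seen. From each other list, up to 4 probes changed most in each direction were named, among those past the threshold with 1 sign on all arrays; second probes of named genes are given beside them. Alternatives covered filters, background, normalization, model and leaving out each array.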

Additional observations from a re-analysis of the deposited data

How the results depend on the processing

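All 14 called probes of GPI anchor genes kept their sign under each of 16 alternatives that tested them. Most of these alternatives could not turn a sign. They changed only the filter, the variance estimate, the cutoff or the weight of each array. Each called probe already had the same sign on every array. Nothing is therefore read from the kept signs. 4 of the 14, Piga A_51_P458839, Pigq A_52_P487483, Pigz A_51_P285669 and Pigs A_52_P136264, were called under every alternative that tested them, 5 lost the call in 1 to 3 alternatives and 5 in more. With replicates 1 and 2 averaged as 1, 9 member probes, 11 probes of GPI-anchored protein genes and 5120 of all tested probes were called. With array weights (5.84, 0.373 and 0.459 for replicates 1 to 3), the counts were 22 for members, 55 for anchored proteins, 11 for other pathway genes and 18617 for all. By the authors' rule of a B statistic above 0 they were 5, 6, 2 and 2661. Leaving out each array in turn gave 6 to 13 member probes, 7 to 29 for anchored proteins, 2 to 6 for other pathway genes and 2409 to 9885 for all, and a members' median log2 ratio of -0.032 to 0.04. The causes were not tested. The mean of Pigt A_51_P338803 ran from -1.50 without replicate 3 to -0.95 without replicate 2. With the median of a gene's probes 3 GPI anchor genes fell and 6 rose. The test is already paired by array, since each ratio sets mutant against wild type on the same array, so no further replicate block could be added. Signal over background limits the data, since 7 of the 35 member probes were too dim to be tested. In a fit with a dye term, no probe was called for dye after Benjamini-Hochberg adjustment in limma (0), and 2409 were at an unadjusted p under 0.05. Only replicate 2 had the dyes the other way round, so this term cannot separate dye from array, and nothing is read from it.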
